A study of Homo sapiens with 4 samples.

Results

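The genes near the end of chromosome band 5p15 were followed in FaDu, a human cell line established from a hypopharyngeal squamous carcinoma. It carried either a construct for TINCR with HA and FLAG tags (TINCR-HA-FLAG) or an empty vector, and each group had 2 RNA sequencing libraries. The replicates are described as technical, so each p-value reflects the spread between libraries alone. Both groups were grown in MEM alpha with fetal bovine serum, and neither the promoter of the construct nor whether the lines were pools or single clones is given in the sources used here. Members were chosen by position on GRCh38 with GENCODE 29 coordinates. They are the genes that start between 443158 and 6674386 on chromosome 5 and had at least 10 counts in 2 or more of the 4 libraries. Of 60649 gene rows, 105 start in this interval, 70 of those missed the count minimum, and 34 are described here, 22 of them protein coding. The interval was selected by the fold changes of its genes between these same groups, so the differences between groups in the members are a description and support nothing by themselves.

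The tip of the short arm of chromosome 5 is gene dense, with housekeeping, transporter and cell division genes side by side, and is followed inward by a gene-poor stretch that holds 3 genes of the Iroquois homeobox family. The IRX genes encode transcription factors that pattern epithelia and other tissues in development. The telomerase gene TERT lies in the same band, and extra copies of 5p are common in squamous carcinomas. DNA copy number was not analysed here.

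The libraries held 18151424 and 22331602 counts with TINCR-HA-FLAG and 17069533 and 17315648 counts with the empty vector. TINCR itself had 1921 and 2943 counts with TINCR-HA-FLAG, against 68 and 64 counts with the empty vector. The squamous keratin gene KRT5 averaged 3575 ± 370 CPM (read counts per 1e+06 counts of the TMM-scaled library) with TINCR-HA-FLAG and 4457 ± 427 CPM with the empty vector (SD, n = 2 each). The leukocyte gene PTPRC averaged 0.231 ± 0.135 CPM with TINCR-HA-FLAG and 0.205 ± 0.0400 CPM with the empty vector (SD, n = 2 each). The 8 epithelial markers listed were KRT5, KRT14, KRT17, TP63, DSG3, EPCAM, KRT8 and KRT18. All were tested, with log2 fold changes from -1.08 to 0.05, a median of -0.12 and KRT14 called lower by edgeR. Of 9 markers of fibroblasts, endothelium and leukocytes 5 had enough counts to be tested, so the low level of PTPRC does not stand for the list. The 5 had log2 fold changes from -0.22 to 0.40 with a median of 0.18. None was called by edgeR (2 at an unadjusted p under 0.05, both higher). In bulk RNA, fewer cells of a type and less RNA per cell cannot be told apart. The 2 markers of the interval, CEP72 and IRX2, were both well expressed, at more than 30 CPM in each library.

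Promoter sequences, from 250 bases before to 50 bases after the gene start, are shown for 4 members whose values the description turns on. They come from RefSeq (GRCh38.p14), which had a promoter for 23 of the 34 members. CEP72 and IRX2 are the markers. TRIP13 and SRD5A1 were added after their values were seen, because each starts head to head with a neighbouring member. CEP72 is on the plus strand at chr5:612090-612389, IRX2 on the minus strand at chr5:2751628-2751927, TRIP13 on the plus strand at chr5:892634-892933 and SRD5A1 on the plus strand at chr5:6633190-6633489. Each is written in the direction of its gene, with capitals for the GC box letters GGGCGG on either strand.
CEP72: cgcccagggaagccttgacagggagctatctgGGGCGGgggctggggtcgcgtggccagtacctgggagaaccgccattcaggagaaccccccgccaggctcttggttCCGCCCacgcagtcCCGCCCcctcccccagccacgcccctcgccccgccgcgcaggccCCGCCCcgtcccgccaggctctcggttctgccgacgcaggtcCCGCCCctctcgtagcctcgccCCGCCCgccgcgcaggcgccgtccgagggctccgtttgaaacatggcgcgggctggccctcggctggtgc
IRX2: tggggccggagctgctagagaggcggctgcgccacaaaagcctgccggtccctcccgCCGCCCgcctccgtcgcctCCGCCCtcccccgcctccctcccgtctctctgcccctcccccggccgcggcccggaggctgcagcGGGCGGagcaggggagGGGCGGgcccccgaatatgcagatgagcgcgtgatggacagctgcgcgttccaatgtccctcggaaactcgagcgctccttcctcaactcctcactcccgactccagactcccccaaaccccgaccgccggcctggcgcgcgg
TRIP13: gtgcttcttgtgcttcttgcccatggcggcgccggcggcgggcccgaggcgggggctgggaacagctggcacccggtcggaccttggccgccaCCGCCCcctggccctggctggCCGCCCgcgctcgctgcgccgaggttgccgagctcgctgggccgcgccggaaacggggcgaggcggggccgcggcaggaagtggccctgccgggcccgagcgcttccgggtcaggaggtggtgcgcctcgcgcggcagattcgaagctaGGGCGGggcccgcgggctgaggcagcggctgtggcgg
SRD5A1: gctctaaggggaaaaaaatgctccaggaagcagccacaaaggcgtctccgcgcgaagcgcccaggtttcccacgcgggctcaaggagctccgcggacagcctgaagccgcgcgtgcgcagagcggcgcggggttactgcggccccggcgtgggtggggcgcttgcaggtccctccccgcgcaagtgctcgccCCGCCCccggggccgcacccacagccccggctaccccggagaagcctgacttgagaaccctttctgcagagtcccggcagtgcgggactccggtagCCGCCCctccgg
The GC box letters occurred in 20 of the 23 member promoters (87.0%), in 68.1% of 12014 promoters of genes tested and in 45.0% of all 35116 promoters of the table. The median GC content was 76.3% in the member promoters, 65.0% in those of genes tested and 58.7% in all. The letters CCAAT occurred in 7 of the 23 (30.4%), beside 36.3% of promoters of genes tested and 34.6% of all. TATAAA occurred in 1 (4.35%), beside 6.42% and 11.5%. CCGGAA occurred in 4 (17.4%), beside 28.0% and 17.2%, and CACGTG in 3 (13.0%), beside 9.75% and 7.26%. Each word was searched on both strands. The promoters of IRX2 and IRX2-DT overlap, as do those of BRD9 and TRIP13, so words within the overlaps were counted for both genes of a pair. These are matches of letters and not measured binding. None of the searched words contains another on either strand.

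As a group, the members were lower with TINCR-HA-FLAG. Their summed level was 1056 and 1092 CPM in the TINCR-HA-FLAG libraries, against 1476 and 1491 CPM in the empty vector libraries. Both TINCR-HA-FLAG sums lay below both empty vector sums, and the ratio of the means was 0.724. The share of all counts taken by the members was 0.107% and 0.108% with TINCR-HA-FLAG, against 0.148% and 0.146% with the empty vector. CLPTM1L and NSUN2 together made up 33.1% of the members' CPM in the empty vector libraries. Without them the sum was 734 ± 3.49 CPM with TINCR-HA-FLAG and 992 ± 0.811 CPM with the empty vector (SD, n = 2 each), a ratio of 0.739.

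Of the 34 members, 33 passed the filter on low counts (edgeR's filterByExpr) and entered the fit over 18771 genes. Their log2 fold changes, TINCR-HA-FLAG over empty vector, had a median of -0.34, beside 0.006 over all genes tested. Negative values were found for 31 of the 33, as for 49.1% of all genes tested. Both TINCR-HA-FLAG libraries lay below both empty vector libraries for 20 of the 33, which was also true of 17.9% of all genes tested. They lay above for 2, beside 21.7% of all genes tested, and the groups overlapped for 11. Because the interval was picked from these values, nothing is read from the counts.

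At an adjusted p under 0.05 in the edgeR quasi-likelihood test, CEP72 and IRX2 were the members called, both lower. Over all genes 0.549% were called, 0.0959% as lower and 0.453% as higher. No member was called higher by edgeR or DESeq2, and none had a positive fold change with an unadjusted edgeR p under 0.05. DESeq2 called 8 members lower (0.314% of all genes tested), adding BRD9, TRIP13, CLPTM1L, LPCAT1, NSUN2 and SRD5A1. The edgeR count moved with single libraries. It was 5 without TINCR-HA-FLAG replicate 1 and 9 without TINCR-HA-FLAG replicate 2. Without replicate 1 of the empty vector it was 5, and with that of replicate 2 left out it was 4. Over all 18771 genes those fits called 65, 185, 73 and 63 lower, in the same order, against 18 with every library. CEP72 was called in each of these fits, whereas IRX2 missed the threshold without empty vector replicate 2 (edgeR adjusted p = 0.070).

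**Figure D1:**
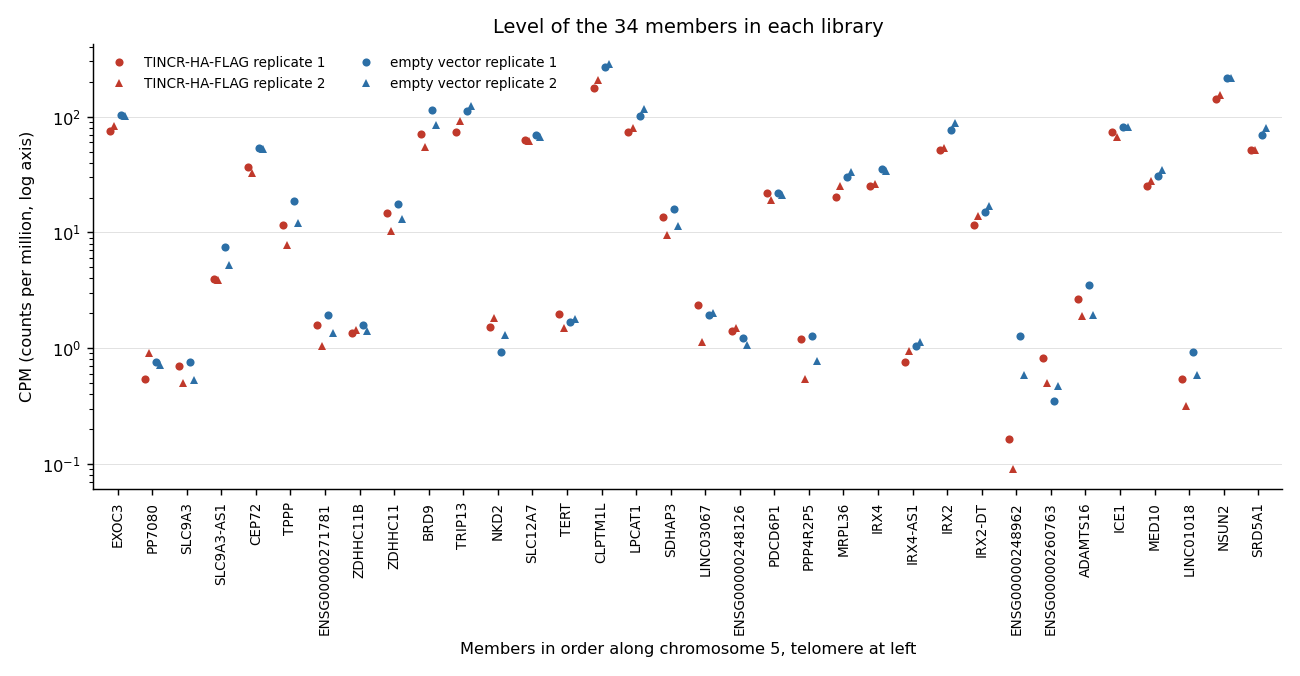
Level of each of the 34 members in each library, in CPM on a log axis, with members in order along the chromosome. Circles and triangles are replicates 1 and 2, in red for TINCR-HA-FLAG and blue for the empty vector. The red points of most members above 10 CPM sit below the blue ones, and the groups overlap or lie close for most members near 1 CPM.

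The first megabase of the chromosome holds 11 members, from EXOC3 to TRIP13. All had a negative log2 fold change, with a median of -0.37, and 6 of the 11 had both TINCR-HA-FLAG libraries below both empty vector libraries, beside 17.9% of all genes tested. EXOC3, which encodes a subunit of the exocyst that tethers secretory vesicles to the plasma membrane, had 75.5 and 82.4 CPM with TINCR-HA-FLAG, against 104 and 101 CPM with the empty vector. Its log2 fold change was -0.37 (SE 0.10). It starts the interval (443158 to 471937, plus strand), and 10.3% of its exon bases are shared with exons of EXOC3-AS1, PP7080 or SLC9A3. The strand setting of the counting is not given in the sources used here, so reads in such overlaps may be split between genes.

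CEP72 (ENSG00000112877.8, 612272 to 667168, plus strand) encodes a protein of the centriolar satellites that surround the centrosome. It had 36.7 and 32.7 CPM with TINCR-HA-FLAG, against 53.6 and 52.6 CPM with the empty vector. The 4 libraries fell into 2 tight pairs, and the log2 fold change was -0.62 (SE 0.11), a difference of -34.7%. The last exons of CEP72 run into those of TPPP on the other strand, over 11.0% of the exon bases of CEP72. TPPP, which encodes a protein that promotes tubulin polymerization, had 11.5 and 7.80 CPM with TINCR-HA-FLAG, against 18.6 and 12.03 CPM with the empty vector. Its groups did not overlap, but replicate 1 was the higher library in both groups, and the log2 fold change of -0.67 had an SE of 0.24.

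BRD9 and TRIP13 start head to head, with first exons that overlap. BRD9 encodes the bromodomain subunit of the non-canonical BAF chromatin remodelling complex. It had 70.9 and 54.6 CPM with TINCR-HA-FLAG, against 113 and 85.5 CPM with the empty vector, and a log2 fold change of -0.67 (SE 0.16). TRIP13, an AAA ATPase that remodels HORMA-domain proteins such as MAD2 in the spindle checkpoint, had 74.3 and 91.0 CPM with TINCR-HA-FLAG, against 112 and 123 CPM with the empty vector. Its log2 fold change was -0.51 (SE 0.12). In BRD9 replicate 1 was the higher library in both groups and in TRIP13 replicate 2 was, so the libraries differed in opposite ways while both genes were lower with TINCR-HA-FLAG.

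The other members of the first megabase were weakly expressed or overlapped between groups. The palmitoyltransferase gene ZDHHC11 had 14.8 and 10.2 CPM with TINCR-HA-FLAG, against 17.6 and 13.1 CPM with the empty vector (log2 fold change -0.30, SE 0.21). ZDHHC11B, a close paralog with which reads could be shared, had 1.36 and 1.44 CPM with TINCR-HA-FLAG, against 1.58 and 1.42 CPM with the empty vector (log2 fold change -0.09, SE 0.41). SLC9A3, which encodes an apical sodium-proton exchanger of gut and kidney, stayed under 1 CPM in the 4 libraries, with a log2 fold change of -0.11 (SE 0.60). Its antisense RNA SLC9A3-AS1 had 3.96 and 3.88 CPM with TINCR-HA-FLAG, against 7.41 and 5.25 CPM with the empty vector (log2 fold change -0.69, SE 0.26). SLC9A3-AS1 shares 19.3% of its exon bases with SLC9A3 exons. SLC9A3 shares 56.7% of its own with EXOC3, PP7080 or SLC9A3-AS1, and PP7080 shares 85.4% with EXOC3 or SLC9A3. Reads of these genes may thus be split or misassigned. PP7080 and ENSG00000271781 had log2 fold changes of -0.009 and -0.34 with groups that overlapped.

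Between 1 and 2 Mb, 13 members had a median log2 fold change of -0.24, and 11 were negative. The 7 protein-coding ones had a median of -0.44. CLPTM1L, which encodes a membrane protein next to TERT, had the highest level per length of the members, at 29.2 CPM per kb of exon with TINCR-HA-FLAG and 42.1 CPM per kb with the empty vector. It had 177 and 206 CPM with TINCR-HA-FLAG, against 268 and 284 CPM with the empty vector, a log2 fold change of -0.53 (SE 0.11). LPCAT1, an acyltransferase that makes phosphatidylcholine from its lyso form, had 73.8 and 80.5 CPM with TINCR-HA-FLAG, against 102 and 117 CPM with the empty vector (log2 fold change -0.50, SE 0.11). Groups did not overlap in either gene, and the fold changes of these neighbours differed by less than their SE.

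SLC12A7 and TERT lie next to CLPTM1L on the telomere side and had values near 0. SLC12A7, which encodes the potassium-chloride cotransporter KCC4, had 62.9 and 61.2 CPM with TINCR-HA-FLAG, against 68.9 and 66.6 CPM with the empty vector. Its log2 fold change of -0.13 (SE 0.10) was the closest to 0 among the 10 members with a mean of at least 50 CPM. TERT, the catalytic subunit of telomerase, had 1.95 and 1.49 CPM with TINCR-HA-FLAG, against 1.69 and 1.77 CPM with the empty vector. Its counts were 36 and 33 with TINCR-HA-FLAG, against 29 and 30 with the empty vector. Its log2 fold change of -0.01 had an SE of 0.39, and a difference of the size seen in CLPTM1L was not detectable at this depth. NKD2, an antagonist of Wnt signalling that binds dishevelled, was higher, with 1.52 and 1.80 CPM with TINCR-HA-FLAG, against 0.934 and 1.30 CPM with the empty vector. Its log2 fold change of 0.58 had an SE of 0.43.

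Near 1.6 Mb lie pseudogenes that resemble genes of the first megabase. SDHAP3, a copy of the succinate dehydrogenase gene SDHA, had 13.6 and 9.51 CPM with TINCR-HA-FLAG, against 15.8 and 11.4 CPM with the empty vector (log2 fold change -0.24, SE 0.22). PDCD6P1, a copy of PDCD6, had 22.05 and 19.0 CPM with TINCR-HA-FLAG, against 21.9 and 20.9 CPM with the empty vector (log2 fold change -0.06, SE 0.14). Both had groups that overlapped, and reads could be shared with SDHA and PDCD6. PPP4R2P5, LINC03067 and ENSG00000248126 stayed under 3 CPM, with log2 fold changes of -0.26, -0.20 and 0.34 and SEs from 0.43 to 0.57.

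MRPL36 and IRX4 close this stretch. MRPL36, which encodes a protein of the large subunit of the mitochondrial ribosome, had 20.04 and 25.1 CPM with TINCR-HA-FLAG, against 30.0 and 33.1 CPM with the empty vector (log2 fold change -0.48, SE 0.14). IRX4, an Iroquois gene best known from the heart ventricles, had 25.4 and 26.1 CPM with TINCR-HA-FLAG, against 35.6 and 34.2 CPM with the empty vector (log2 fold change -0.44, SE 0.11). In both genes every TINCR-HA-FLAG library lay below every empty vector library. IRX4-AS1, at about 1 CPM, had a log2 fold change of -0.34 (SE 0.49).

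IRX2 (ENSG00000170561.13, 2745845 to 2751662, minus strand) lies with its divergent transcript in the gene-poor part of the interval. It had 51.4 and 53.7 CPM with TINCR-HA-FLAG, against 76.7 and 88.6 CPM with the empty vector. The log2 fold change was -0.65 (SE 0.11), a difference of -36.4%. IRX2-DT, which GENCODE 29 lists as protein coding, starts 469 bases away on the plus strand and had 11.7 and 13.8 CPM with TINCR-HA-FLAG, against 15.1 and 16.8 CPM with the empty vector. Its log2 fold change was -0.32 (SE 0.16), with groups that did not overlap. IRX1, the third Iroquois gene of the interval, had 3 and 0 counts with TINCR-HA-FLAG, against 0 and 1 with the empty vector, and missed the count minimum. Further inward, ENSG00000248962 had 3 and 2 counts with TINCR-HA-FLAG, against 22 and 10 with the empty vector. The ratio of its pooled counts per library total was 0.133. This gene reached the count minimum only through the empty vector libraries, so a low ratio was built in and nothing is read from it. With all libraries the edgeR test did not call it (adjusted p = 0.199). ENSG00000260763 had 0.815 and 0.496 CPM with TINCR-HA-FLAG, against 0.350 and 0.472 CPM with the empty vector, and was the 1 member that did not pass the filter.

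At 5 Mb and above, 6 members were all negative, with a median log2 fold change of -0.41. NSUN2, which places 5-methylcytosine in tRNAs and mRNAs, had 143 and 155 CPM with TINCR-HA-FLAG, against 215 CPM in both empty vector libraries (log2 fold change -0.53, SE 0.10). SRD5A1, a steroid 5-alpha reductase that converts testosterone to dihydrotestosterone, starts 52 bases from NSUN2 on the other strand. It had 51.6 and 51.4 CPM with TINCR-HA-FLAG, against 69.6 and 79.9 CPM with the empty vector (log2 fold change -0.54, SE 0.11). The fold changes of this head-to-head pair differed by less than either SE, while those of BRD9 and TRIP13 (-0.67 and -0.51) and of IRX2 and IRX2-DT (-0.65 and -0.32) lay further apart.

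ICE1 and MED10, which precede that pair, had smaller differences. ICE1, a subunit of the little elongation complex that acts at small nuclear RNA genes, had 73.5 and 66.2 CPM with TINCR-HA-FLAG, against 81.2 and 81.0 CPM with the empty vector (log2 fold change -0.22, SE 0.10). MED10, a subunit of the Mediator complex, had 24.9 and 27.9 CPM with TINCR-HA-FLAG, against 30.7 and 34.4 CPM with the empty vector (log2 fold change -0.30, SE 0.13). Their groups did not overlap. The metalloprotease gene ADAMTS16 had 2.66 and 1.89 CPM with TINCR-HA-FLAG, against 3.50 and 1.95 CPM with the empty vector (log2 fold change -0.27, SE 0.39), and the groups overlapped. LINC01018 stayed under 1 CPM, with a log2 fold change of -0.84 (SE 0.64).

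**Figure D2:**
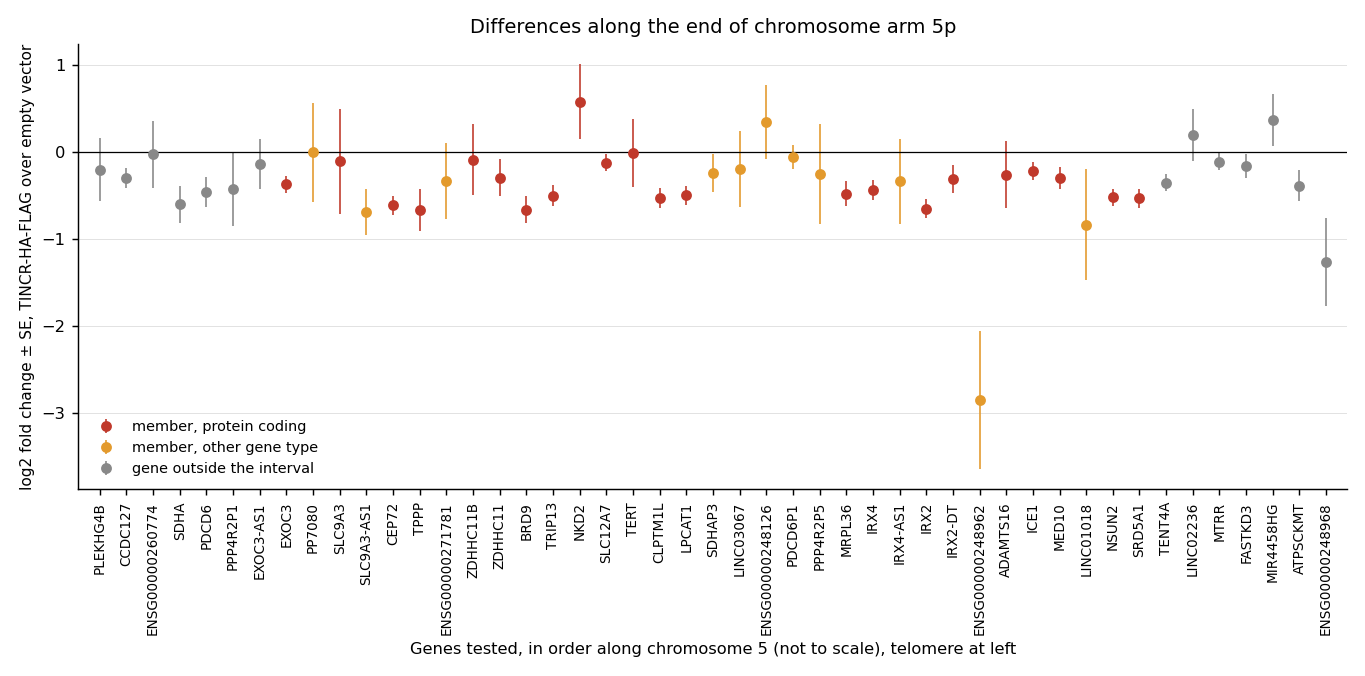
Log2 fold change with its standard error (TINCR-HA-FLAG over empty vector) for members and for the genes tested on either side, in order along the chromosome and not to scale. Red points are protein-coding members, orange points other members and grey points genes outside the interval. Protein-coding members from EXOC3 to SRD5A1 lie below 0 except NKD2, and the grey genes SDHA (-0.61) and TENT4A (-0.35) lie below it too.

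The fold changes by which the interval was picked were most regular among the well-expressed members, which is a description only. All 17 protein-coding members with a mean of at least 10 CPM were negative, between -0.67 and -0.13 with a median of -0.50, and 16 of the 17 had both TINCR-HA-FLAG libraries below both empty vector libraries. Over all protein-coding genes at that level the median was -0.02, 54.5% were negative, and 23.3% had both TINCR-HA-FLAG libraries below. The 10 members with a mean of at least 50 CPM had a median of -0.52. Over all genes tested at that level the median was -0.03 and 59.6% were negative. By contrast, the 14 members under 10 CPM had a median of -0.23, and 12 were negative. Their median SE was 0.44, beside 0.11 for the 10 members of at least 50 CPM. Per length, CLPTM1L was followed by NSUN2 (27.1 CPM per kb with TINCR-HA-FLAG and 39.03 CPM per kb with the empty vector) and TRIP13 (23.2 and 33.0 CPM per kb). MRPL36 (16.2 and 22.7 CPM per kb) and IRX2 (15.5 and 24.4 CPM per kb) were close to each other and changed places between the groups.

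The ends of the interval did not coincide with an end of the shift. Toward the telomere, 7 further genes were tested and all had negative log2 fold changes, with a median of -0.30. EXOC3-AS1, the nearest, had 3.26 and 3.61 CPM with TINCR-HA-FLAG, against 4.203 and 3.36 CPM with the empty vector (log2 fold change -0.14, SE 0.28). AHRR was not tested at under 1 CPM, and PPP4R2P1 had a log2 fold change of -0.43 (SE 0.42). PDCD6 and SDHA, named after their values were seen, had log2 fold changes of -0.46 (SE 0.17) and -0.61 (SE 0.21). Just inside, EXOC3 had -0.37 at this end and SRD5A1 -0.54 at the other. Toward the centromere TENT4A, a noncanonical poly(A) polymerase gene, had 120 and 114 CPM with TINCR-HA-FLAG, against 149 and 150 CPM with the empty vector (log2 fold change -0.35, SE 0.10). LINC02236 followed with 0.20 (SE 0.30) and MTRR, which encodes methionine synthase reductase, with -0.12 (SE 0.10).

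The rest of the arm, outside the interval, had mostly negative fold changes, with medians smaller in size than that of the members. The interval was picked by the fold changes of its genes, so a lower median inside it was built in and nothing is read from that difference. Over all 121 genes tested between the interval and the centromere, 79 were negative, 42 were positive and the median was -0.11. In 45 of them both TINCR-HA-FLAG libraries lay below both empty vector libraries, beside 17.9% of all genes tested. Of protein-coding genes with a mean of at least 10 CPM, all 15 between the interval and 20 Mb had negative log2 fold changes. They ranged from -0.56 to -0.04, with a median of -0.29. From 20 Mb to the centromere 31 of 36 were negative, with a median of -0.15. On the long arm 197 of 353 were negative, with a median of -0.01. Both TINCR-HA-FLAG libraries lay below both empty vector libraries for 34 of the 51 short-arm genes beyond the interval, against 87 of the 353 long-arm genes. The share was 23.3% over all protein-coding genes tested with a mean of at least 10 CPM. Over all chromosome 5 genes tested outside the interval, MYO10 on the short arm was called lower and GABRP on the long arm higher. MYO10, which encodes an unconventional myosin of filopodia, had 94.5 and 95.6 CPM with TINCR-HA-FLAG, against 136 and 145 CPM with the empty vector (log2 fold change -0.56, SE 0.10, edgeR adjusted p = 0.041). GABRP, a GABA receptor subunit gene, had 6.41 and 4.10 CPM with TINCR-HA-FLAG, against 1.46 and 0.590 CPM with the empty vector (log2 fold change 2.34, SE 0.43, edgeR adjusted p = 0.049). The differences between arms were not tested, since neighbouring genes are not replicates.

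**Figure D3:**
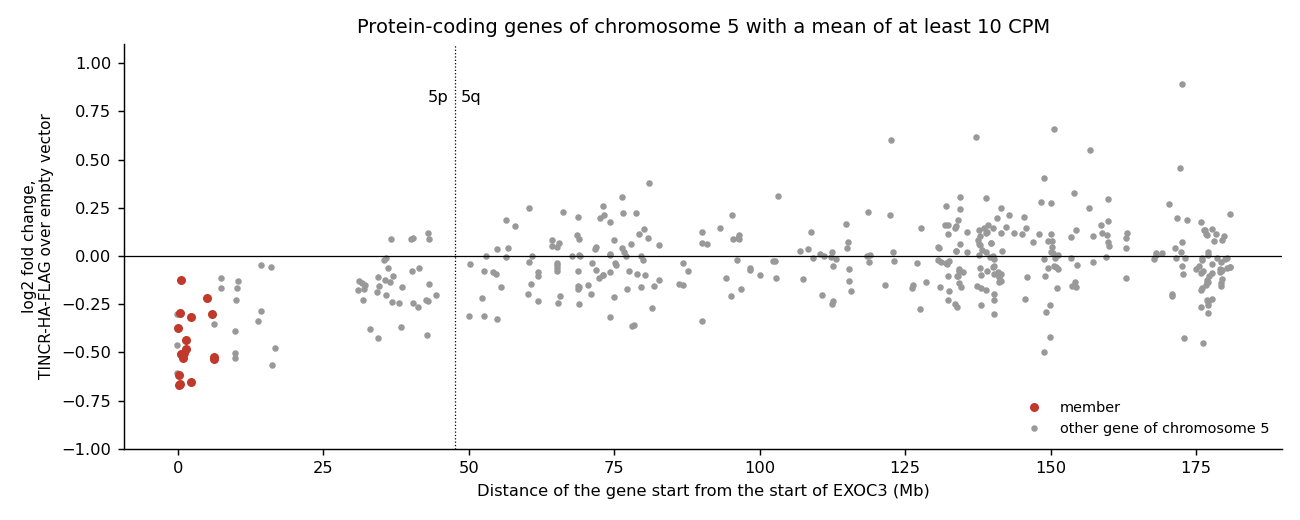
Log2 fold change (TINCR-HA-FLAG over empty vector) of protein-coding genes of chromosome 5 with a mean of at least 10 CPM, against distance from the start of EXOC3 in Mb. Red points are members, grey points other genes, and the dotted line separates 5p from 5q. The members have a median of -0.50, the other 5p genes beyond the interval -0.17 and the 5q genes -0.01. The interval was picked from this contrast, so the lower median of the members is built in.

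The libraries of 1 group also differed from each other along the interval. The log2 CPM of replicate 1 minus replicate 2 had a median of 0.03 over the 33 members with TINCR-HA-FLAG and 0.05 with the empty vector. Protein-coding members had medians of -0.05 and 0.002, while the 11 other members had 0.45 and 0.46. All 5154 genes tested that are not protein coding had medians of 0.26 in both groups, so the higher level in replicate 1 was found across the genome for such genes. TPPP was higher in replicate 1 by 0.56 with TINCR-HA-FLAG and by 0.62 with the empty vector, close in size to its difference between groups (-0.67). BRD9 was higher in replicate 1 by 0.37 with TINCR-HA-FLAG and by 0.41 with the empty vector, less than its difference between groups (-0.67). ZDHHC11 was higher in replicate 1 by 0.53 with TINCR-HA-FLAG and by 0.42 with the empty vector, more than its difference between groups (-0.30). Each group held 1 library of each replicate number. In a fit with the replicate number as a block, the members' median log2 fold change was -0.33, against -0.34 in the main fit. That fit called 1312 genes lower, BRD9 and TPPP among them but not ZDHHC11. CEP72 (0.17 and 0.03) and IRX2 (-0.06 and -0.21) differed less between replicates than between groups. Both were called by a test that weighs these same differences, so this adds no support.

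**Figure D4:**
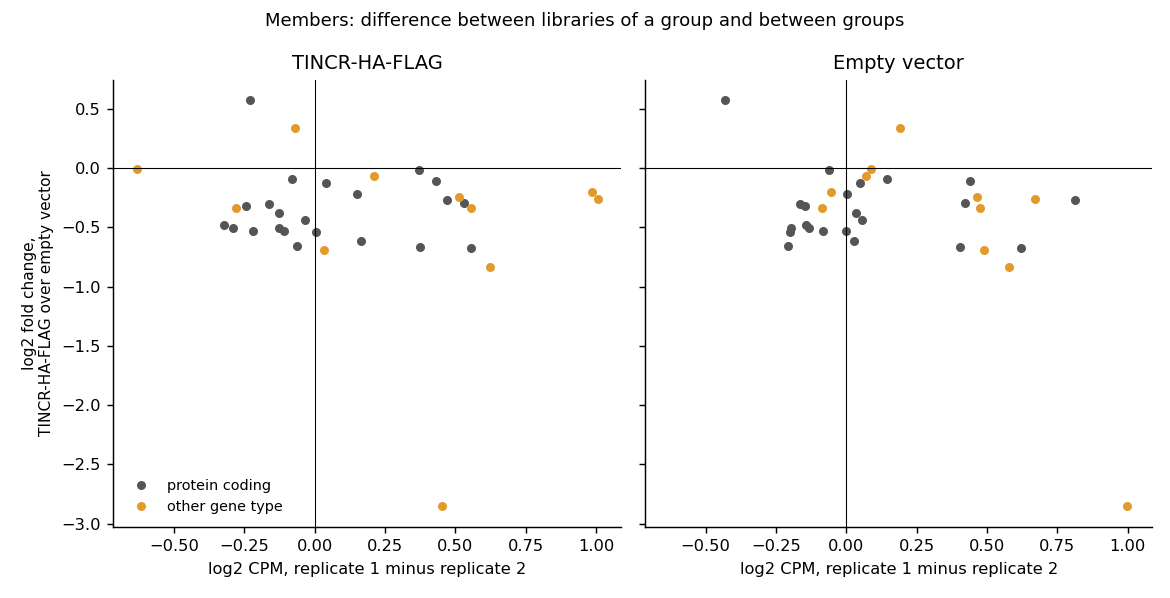
For each member tested, the log2 fold change between groups (vertical axis) against the difference in log2 CPM between replicate 1 and replicate 2 (horizontal axis), for TINCR-HA-FLAG at left and the empty vector at right. Dark grey points are protein coding and orange points other gene types. Protein-coding members spread to both sides of 0 between replicates, while most lie below 0 between groups.

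Genes elsewhere in the genome that belong to the same complexes and families were not used by the rule, and 1 was called. In 15 lists chosen with earlier results of these data known, 181 partners were tested, with a median log2 fold change of -0.05. Of these, 115 were negative (63.5%, beside 49.1% of all genes tested). Both TINCR-HA-FLAG libraries lay below both empty vector libraries for 24.9% of the partners, beside 17.9% of all genes tested. The edgeR test called 1 of the partners, WNK2, against a background of 0.549%. At an unadjusted p under 0.05, 7 were lower and 9 higher, against a background of 10.1% in either direction. DESeq2 called WNK2 alone, against a background of 1.01%. WNK2, a kinase acting upstream of the cation-chloride cotransporters, rose to 104 ± 4.54 CPM with TINCR-HA-FLAG, against 62.7 ± 1.04 CPM with the empty vector (SD, n = 2 each; log2 fold change 0.73, SE 0.10, edgeR adjusted p = 0.011).

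The lists that hold CEP72, BRD9, TRIP13, NSUN2 and IRX2 differed in their medians. The 15 centriolar satellite genes tested beside CEP72 had a median of -0.001, and PCM1, their scaffold, had 126 ± 7.05 CPM with TINCR-HA-FLAG and 117 ± 5.70 CPM with the empty vector (SD, n = 2 each). The 12 partners of BRD9 in the non-canonical BAF complex had a median of -0.01, with SMARCC1 at 0.06. For the 8 spindle checkpoint partners of TRIP13 the median was -0.11, with 7 of 8 negative and a range of -1.11 to 0.06, and CDC20 had a log2 fold change of -0.19 (SE 0.13). The 7 other RNA m5C methyltransferase genes had a median of 0.08, beside -0.53 for NSUN2. The 3 Iroquois genes tested on another chromosome had a median of 0.21. The highest, IRX6, named after its values were seen, had 13 and 31 counts with TINCR-HA-FLAG, against 7 and 2 counts with the empty vector, a log2 fold change of 1.98 that was not called at an adjusted p under 0.05 in edgeR. The most expressed, IRX3, had 20.5 ± 2.32 CPM with TINCR-HA-FLAG and 20.8 ± 1.23 CPM with the empty vector (SD, n = 2 each), a log2 fold change of -0.02 (SE 0.14).

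The remaining 10 lists had medians from -0.18 to -0.003. The median was -0.007 for 8 exocyst partners (EXOC5 at -0.01), -0.003 for 31 Mediator subunits (MED22 at -0.10) and -0.09 for 7 genes of the little elongation complex (ICE2 at 0.09). It was -0.08 for 47 genes of the large subunit of the mitochondrial ribosome (MRPL11 at 0.07) and -0.10 for 6 lysophospholipid acyltransferases (MBOAT7 at -0.10). Cotransporters and their kinases had a median of -0.07 over 10 genes, sodium-proton exchangers -0.09 over 9 (NHERF1 at -0.08), and telomerase and shelterin genes -0.04 over 11 (DKC1 at -0.30). For NKD1, the dishevelled genes and axin it was -0.18 over 5 (DVL3 at -0.02 and NKD1 the 1 positive value, at 0.68) and for the reductase family -0.14 over 2 (TECR at 0.03). No partner in these 10 lists other than WNK2 was called by edgeR or DESeq2.

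**Figure D5:**
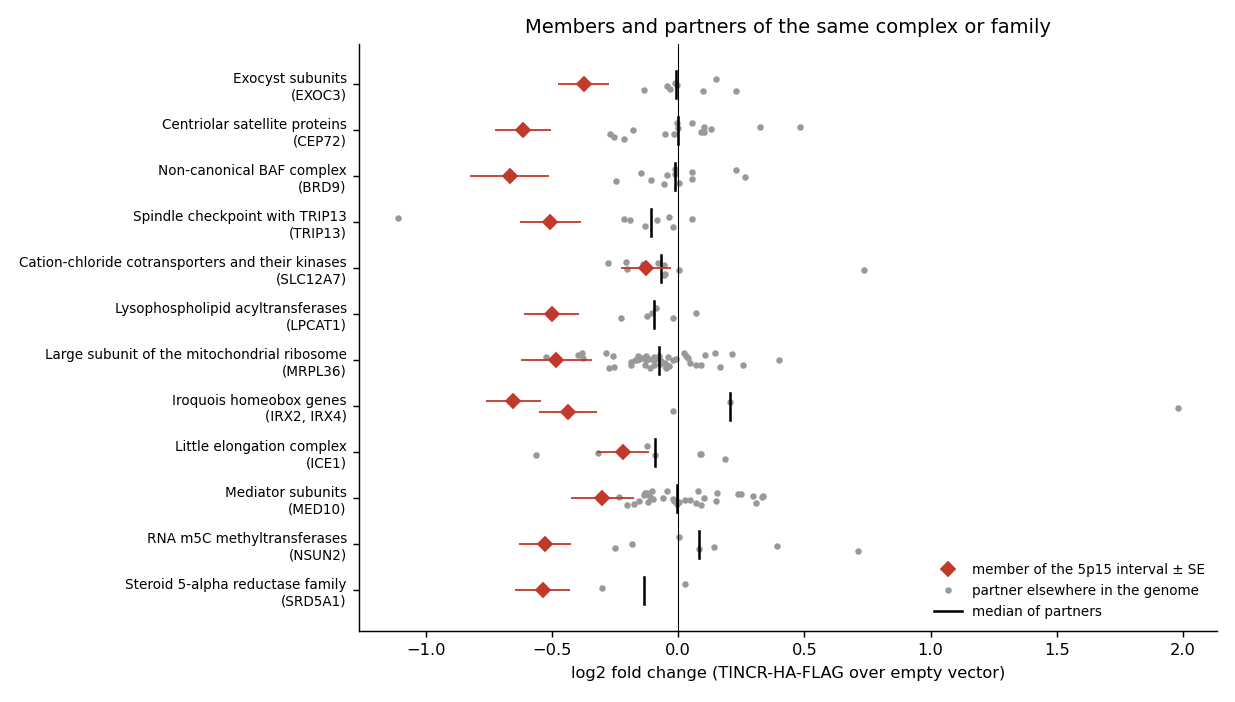
Log2 fold change (TINCR-HA-FLAG over empty vector) of members (red diamonds with standard errors) and of the tested genes of the same complex or family elsewhere in the genome (grey points, with their median as a black bar), for 12 of the lists. The diamonds of CEP72, BRD9, NSUN2 and IRX2 lie between -0.67 and -0.53, left of the medians of their partners. Those of SLC12A7 (-0.13, partners -0.07) and ICE1 (-0.22, partners -0.09) lie nearer to them. The interval was picked from this contrast, so nothing is read from the side on which the diamonds lie.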

How the data were processed

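The deposited table holds raw read counts per Ensembl gene, 1 column per library. Per the submitters' processing notes, bcl2fastq 2.20.0.422, STAR 2.7.9a, DESeq2 1.32.0 and GRCh38 were used, with no roles given. How reads were counted, on which strand and with which annotation is not given in the sources used here. Columns were matched to samples on cell line, construct and replicate number, and 12 other library columns were not used. Positions came from GENCODE 29 (58367 of 60649 rows matched) and symbols from a reference table (60463 rows). Counts were filtered with filterByExpr, scaled by TMM and passed to the quasi-likelihood test of edgeR 4.0.16 (robust fit, R 4.3.3), with Benjamini-Hochberg adjustment over 18771 genes. Standard errors came from the fold change and its F statistic. DESeq2 1.42.0 was an alternative. The tests were checked on simulated counts. At these depths 3 counts equal 0.135 to 0.177 CPM, which covers counting error only. The members and lists were chosen with earlier results of these data known. The named genes were all protein-coding members, the 3 most expressed noncoding ones (the others were named after their values were seen), the 3 nearest genes at each end, and the called or most expressed partner of each list. 1 gene of the interval is not reported here.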

Additional observations from a re-analysis of the deposited data

How the results depend on the processing

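The members' median log2 fold change stayed negative in each of the 12 alternatives run, from -0.43 to -0.32, and CEP72 and IRX2 in each of 10. Of the 33 members tested, 24 were negative and 2 positive in the main fit and in the 10 alternative fits, while 7 changed sign in some. Counts of calls were less stable. Over all genes, 103 were called (85 higher, 18 lower), against 190 (131 and 59) with DESeq2 and 363 (257 and 106) with no filter beyond 1 count. Leaving out 1 library gave 176 to 416 calls, 103 to 231 higher and 63 to 185 lower. Members called lower numbered 2, against 8 with DESeq2, 9 with no filter and 4 to 9 with 1 library left out. CEP72 ranged from -0.70 to -0.53 and IRX2 from -0.79 to -0.54 with 1 library left out, the smallest value without empty vector replicate 2 and no longer called. The cause of these shifts was not tested. In the paired fit, with the replicate number as a block, 2639 of 18771 genes were called (1327 higher, 1312 lower). Among the 33 members 16 were called lower, and among the 181 partners 29 were called in either direction. Differences between replicates 1 and 2 correlated between the groups across 18771 genes (r = 0.37, and 0.58 over the 11920 whose log2 CPM averaged 2 or more). Libraries of the same number thus differed in part alike, which the main fit does not model. No label ties the numbers and there are only 2 pairs, and what such libraries share was not tested. A fit with 1 library in a group takes that group's spread from the other group. Members near 1 CPM had standard errors of about 0.4 or more, so differences of the size seen in CEP72 were not detectable for them at this depth.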
